A study of Rattus norvegicus with 6 samples.

Results

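Insulin and IGF signalling was followed through 10 genes in the tip of the rat kidney inner medulla (IM): the ligand Igf1, the receptors Igf1r and Insr, and the binding proteins Igfbp1 to Igfbp7. The genes were taken by exact symbol from a table of 27321 features. Of the 10, 9 had a row of their own and 7 reached the mean of 5 normalized counts over the 6 libraries that was required for testing, among 13486 features tested in all. Igf1 was lower in every STZ library than in any control library, and Igfbp2 and Igfbp5 were higher, with mean levels that differed 1.96-fold, 2.20-fold and 1.77-fold. None of these differences passed a Benjamini-Hochberg adjusted p of 0.05, and the transcripts of both receptors overlapped between the groups.

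The animals were male Sprague-Dawley rats, 3 months old and about 150 g. The 3 STZ rats received 62.5 mg/kg of streptozotocin, a toxin that destroys the insulin-producing beta cells, in 0.1 M citrate by the tail vein, and the 3 control rats received the citrate vehicle alone. Diabetes in the STZ rats was judged from blood glucose, and tissue was taken on day 15. RNA came from the terminal part of the whole IM, so each library held collecting duct, thin limb, vascular and interstitial cells together, and fewer cells of a type and less RNA per cell cannot be told apart.

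Insulin and the insulin-like growth factors act through a pair of related receptor tyrosine kinases, which recruit IRS proteins and switch on the PI3K and Akt cascade and the Ras and MAP kinase cascade. Akt in turn holds FoxO transcription factors out of the nucleus. The IGF binding proteins hold the IGFs in blood and tissue, can restrain or prolong their action, and are cleared by proteases. In the kidney, Igf1 is known as a growth factor of the collecting duct and as an early actor in diabetic kidney enlargement.

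The promoters of 4 members are printed here because, of the 7 members tested, these are the ones whose groups did not overlap. Over all features tested, the groups did not overlap for 20.3%. Igfbp1 was tested only because of its control mean, 7.71 normalized counts against 3.25 in the STZ libraries. In the coordinates of the deposited table (rn4), the Igfbp2 row ended 5.444 kb from the Igfbp5 row on chromosome 9, and the Igfbp1 and Igfbp3 rows were 3.863 kb apart on chromosome 14. Each sequence is the 250 bases upstream of the RefSeq start in build GRCr8, written 5′ to 3′ on the strand of the gene. Capitals in Igf1 and Igfbp1 mark the insulin response core TGTTTTG, which reads CAAAACA on the opposite strand, and capitals in Igfbp2 mark an E-box (CACGTG) and then a GC box (GGGCGG).
Igf1 (chr7:24172282-24172531, plus strand): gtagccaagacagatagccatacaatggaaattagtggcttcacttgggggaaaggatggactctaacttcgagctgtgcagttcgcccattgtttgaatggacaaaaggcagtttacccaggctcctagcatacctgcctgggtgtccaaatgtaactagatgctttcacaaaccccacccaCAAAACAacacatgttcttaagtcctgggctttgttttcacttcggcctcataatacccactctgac
Igfbp1 (chr14:86261027-86261276, plus strand): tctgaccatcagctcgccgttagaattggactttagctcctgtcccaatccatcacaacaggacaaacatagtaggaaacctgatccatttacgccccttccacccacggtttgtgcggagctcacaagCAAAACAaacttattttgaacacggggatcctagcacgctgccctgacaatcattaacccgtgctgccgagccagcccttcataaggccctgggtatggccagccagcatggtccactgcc
Igfbp2 (chr9:81864561-81864810, plus strand): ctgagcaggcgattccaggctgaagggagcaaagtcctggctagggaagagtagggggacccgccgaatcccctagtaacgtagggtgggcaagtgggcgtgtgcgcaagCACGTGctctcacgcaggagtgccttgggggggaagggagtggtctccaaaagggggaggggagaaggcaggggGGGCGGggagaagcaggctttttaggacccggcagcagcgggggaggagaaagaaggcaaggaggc
Igfbp5 (chr9:81914188-81914437, minus strand): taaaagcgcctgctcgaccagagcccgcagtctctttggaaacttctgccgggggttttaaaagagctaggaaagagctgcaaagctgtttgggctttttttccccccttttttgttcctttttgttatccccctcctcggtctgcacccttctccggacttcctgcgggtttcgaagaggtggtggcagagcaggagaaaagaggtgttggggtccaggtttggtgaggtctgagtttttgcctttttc

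Of the 10 member promoters, only those of Igf1 and Igfbp1 held the insulin response core, at bases 67 to 61 and 121 to 115 upstream of the start, and 5.46% of 33469 rat promoters of the same length held it. The related FoxO motif TGTTTAC was found in the promoters of Insr and Igfbp6, against 3.21% of all promoters. The E-box was found for Igf1r and Igfbp2, against 5.59%, the GC box for Igf1r, Igfbp2 and Igfbp7, against 30.5%, and the TATA box (TATAAA) for Igfbp4 alone, against 12.9%. The Igfbp5 window held none of these 5 motifs. Both strands were searched, no 2 of these matches overlapped, and a match of letters describes the sequence only.

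The libraries held 3412311 to 5575171 reads on genes, and 1 read was worth 0.763 to 1.11 normalized counts. All 3 control libraries were read on 1 sequencing lane and the 3 STZ libraries on other lanes, and the effect of the lane and that of the condition cannot be told apart. Background was read from 835 genes of olfactory receptors, whose 95th percentile was 2.05, 6.33 and 10.02 normalized counts in the control libraries and 1.86, 5.93 and 9.03 in the STZ libraries. Summed markers of collecting duct principal cells were at 32773 to 54600 normalized counts in control libraries and 42665 to 81715 in STZ libraries, and those of the proximal tubule, which does not reach the IM tip, at 15.4 to 74.6 and 19.5 to 64.2. Other cell type markers differed between the groups: intercalated cell markers summed to 1348 to 2854 in control and 541 to 628 in STZ libraries, with 5 of 6 tested genes lower at an adjusted p under 0.05 (limma), and endothelial markers to 8285 to 10229 and 5125 to 5808. The endothelial list had 2 of 10 genes lower (Emcn and Plvap) and 1 higher (Vwf), its median log2 difference was 0.11, and its sum without Emcn, its most counted gene, overlapped at 3101 to 3800 and 3088 to 3595. Urothelial markers summed to 85.4 to 132 and 440.1 to 517, and pericyte and smooth muscle markers to 517 to 570 and 889 to 1000.03, with 2 genes of each list higher (of 5 and of 6 tested). Without Tagln, the most counted gene of the pericyte and smooth muscle list, that sum overlapped at 313 to 337 and 323 to 454. Thick limb markers had 2 of 4 lower (Egf and Umod) and fibroblast markers 2 of 9 higher. The thick limb markers summed to 2680 to 3445 in control and 1598 to 2797 in STZ libraries. Without Cldn10, the most counted gene of that list, the sum did not overlap, at 1099 to 1886 and 210 to 597. The fibroblast markers summed to 7519 to 9133 in control and 4879 to 10887 in STZ libraries. Without Dcn, the most counted gene of the fibroblast list, the sum did not overlap, at 790 to 1195 and 1565 to 1685. At an adjusted p under 0.05 (limma), 0 of 7 principal cell, 0 of 6 thin limb, 0 of 3 proximal tubule and 0 of 12 leukocyte markers passed. The principal cell list still had 5 of 7 genes at an unadjusted p under 0.05 (limma), 4 higher and 1 lower, against 14.7% of all features tested. Its median log2 difference was 0.79, against 0.0056 over all features. No gene of these lists was at or under 3 reads in every library, and the part of these cell types in the results that follow was not tested.

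Igf1, the ligand (chr7:24531668-24605742), was at 255, 227 and 237 normalized counts in the control libraries and at 135, 164 and 67.3 in the STZ libraries. Every STZ library lay below every control library, and the third STZ library was the lowest. The mean went from 240 ± 14.5 to 122 ± 49.7 (SD, n = 3 each), a log2 difference on the log2(normalized count + 1) scale of −1.06 with an SE of 0.29 and a 95% interval of −1.71 to −0.42 (limma, adjusted p = 0.100). The exact permutation test gave p = 0.1, the smallest that 3 libraries against 3 can reach. Without the third STZ library the log2 difference was −0.68.

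**Figure D1:**
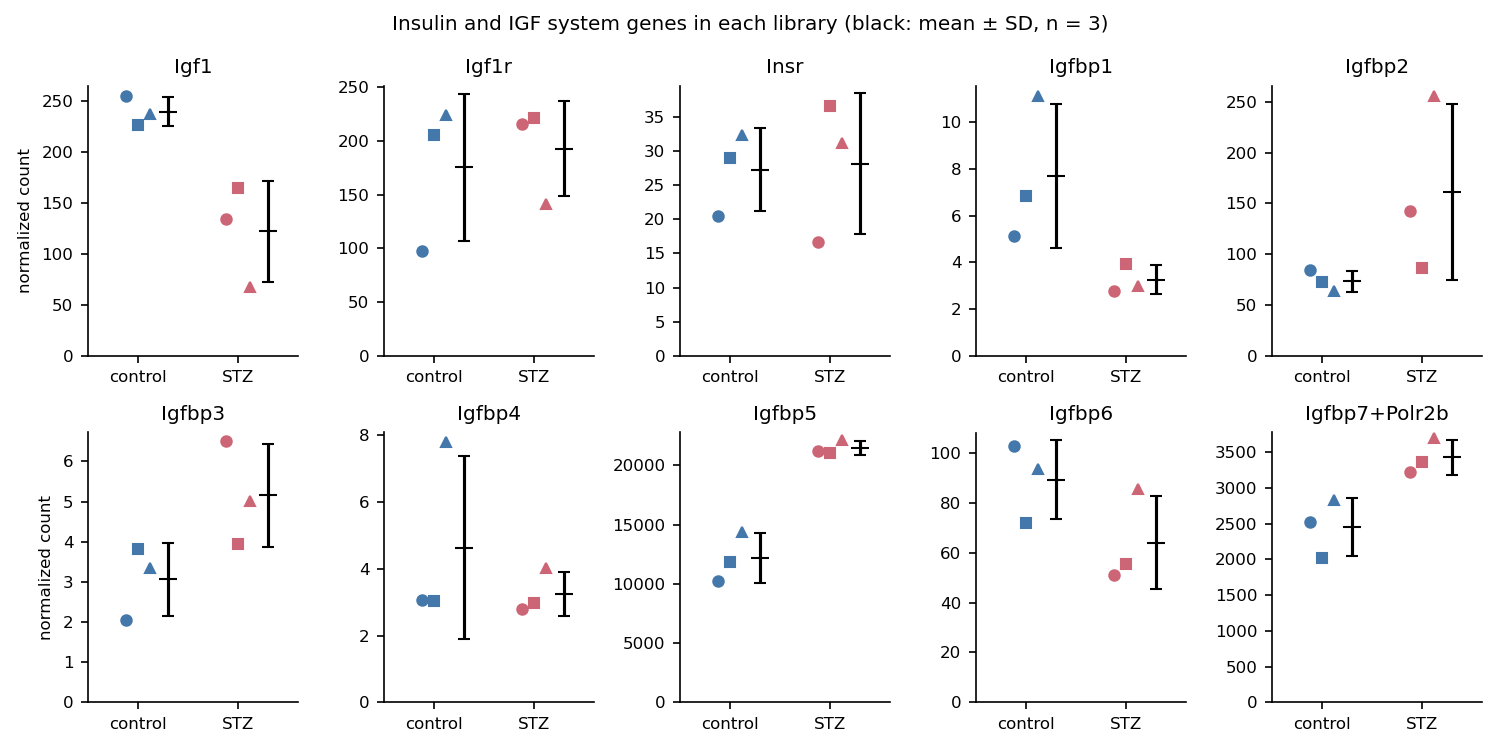
Normalized count of each member with a row of its own, and of the merged Igfbp7 and Polr2b feature, by library. Blue points are control and red points STZ libraries, marker shapes give the replicate number, and black bars are the mean ± SD of 3 libraries. Igf1 sits at 227 to 255 in control and 67.3 to 164 in STZ libraries, and Igfbp5 at 10242 to 14407 and 21093 to 22179.

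Igf1r, the receptor tyrosine kinase that binds Igf1 (chr1:122704986-122990007), was at 97.4, 205 and 224 normalized counts in control and at 215, 222 and 142 in STZ libraries. The groups overlapped, with the first control library the lowest of the 6. The means were 175 ± 68.2 and 193 ± 44.5 (SD, n = 3), and the log2 difference was 0.20 with a 95% interval of −0.49 to 0.89 (limma, adjusted p = 0.873). Its sign turned, to −0.18, without the first control library.

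Insr, the insulin receptor (chr12:2934966-3087691), was at 20.5, 29.0 and 32.3 normalized counts in control and at 16.7, 36.6 and 31.1 in STZ libraries. The STZ libraries spanned the whole control range, with means of 27.3 ± 6.08 and 28.1 ± 10.3 (SD, n = 3). The log2 difference was −0.0015 with an SE of 0.35 and a 95% interval of −0.77 to 0.76 (limma, adjusted p = 0.999). A difference of up to about those limits in either direction could not be seen with 3 libraries per group.

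The balance of the receptors within a library was read from the reads of Igf1r per read of Insr, which were 4.75, 7.08 and 6.93 in control and 12.9, 6.05 and 4.55 in STZ libraries. These are not divided by transcript length. The first STZ library was the highest and the third the lowest of the 6. On the log2 scale the ratio was 2.58 ± 0.332 in control and 2.78 ± 0.753 in STZ libraries, a difference of 0.20 (exact permutation test, two-sided p = 0.9), which became −0.22 without the first STZ library.

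Igfbp5, a binding protein that also attaches to the extracellular matrix (chr9:71999647-72016466), had the highest read counts of the family. It was at 10242, 11830 and 14407 normalized counts in control and at 21227, 21093 and 22179 in STZ libraries. The STZ libraries lay close together and all above the control libraries. The mean went from 12160 ± 2101 to 21500 ± 592 (SD, n = 3), a log2 difference of 0.84 with an SE of 0.24 and a 95% interval of 0.30 to 1.37 (limma, adjusted p = 0.119; exact permutation p = 0.1). Its reads made up 0.215%, 0.278% and 0.379% of all gene reads in the control libraries and 0.456%, 0.476% and 0.557% in the STZ libraries.

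Igfbp2, which binds both IGFs and carries an integrin-binding motif (chr9:71966848-71994203), is the neighbour of Igfbp5. It was at 84.1, 73.2 and 63.4 normalized counts in control and at 143, 86.1 and 256 in STZ libraries. The groups were separated only narrowly, since the lowest STZ library, at 86.1, stood just above the highest control library, at 84.1. The means were 73.6 ± 10.3 and 162 ± 86.5 (SD, n = 3), with a log2 difference of 0.99, an SE of 0.34 and a 95% interval of 0.25 to 1.74 (limma, adjusted p = 0.177; exact permutation p = 0.1). Without the third STZ library the log2 difference was 0.60.

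Igfbp1, a secreted binding protein that insulin represses in liver (chr14:87950221-87955289), was close to the limit of detection. It was at 5.13, 6.86 and 11.1 normalized counts in control and at 2.79, 3.96 and 3.01 in STZ libraries, and 2 libraries were at or under 3 reads. The STZ libraries all lay below the control libraries. These values rest on 24 reads in the control and 10 in the STZ libraries, a depth-adjusted ratio of control to STZ of 2.32 with a 95% interval from counting error alone of 1.07 to 5.45. Igfbp1 reached the minimum mean for testing only through the control libraries, where it averaged 7.71 against 3.25 in the STZ libraries, so its fitted log2 difference of −0.99 (limma, 95% interval −2.40 to 0.43, adjusted p = 0.552) is a description, and it was −0.60 with a pseudocount of 5.

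Igfbp6, a binding protein with a preference for Igf2 (chr7:140885375-140890043), was at 103, 71.7 and 93.5 normalized counts in control and at 51.1, 55.4 and 85.3 in STZ libraries. The third STZ library lay within the control range and the other two lay below it. The means were 89.2 ± 15.8 and 63.9 ± 18.7 (SD, n = 3), and the log2 difference was −0.50 with a 95% interval of −1.06 to 0.07 (limma, adjusted p = 0.414; exact permutation p = 0.2).

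Igfbp3 and Igfbp4 did not reach the minimum mean for testing. Igfbp3, the main IGF carrier of the blood (chr14:87959152-87967097), was at 2.05, 3.81 and 3.34 normalized counts in control and at 6.50, 3.96 and 5.02 in STZ libraries, from 10 and 16 reads. Its normalized counts did not overlap between the groups, while its reads, 2, 5 and 3 in control and 7, 4 and 5 in STZ libraries, did. The ratio of STZ to control was 1.65, with a 95% counting interval of 0.705 to 4.07. Igfbp4, which is cleaved by the protease PAPP-A (chr10:87822428-87834301), was at 3.08, 3.05 and 7.79 in control and at 2.79, 2.97 and 4.02 in STZ libraries, from 14 and 10 reads, a ratio of 0.738 with an interval of 0.293 to 1.79. Neither interval excluded equal levels, so no difference was detectable at this depth. Like those of Igfbp1, these values are of the size of the olfactory receptor background in the same libraries.

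Igfbp7, a low-affinity relative of the family that is made by endothelium, had no row of its own. The table joined it to Polr2b, which encodes an RNA polymerase II subunit, as 1 feature (chr14:33010197-33107615), and the reads of this feature cannot be assigned to either gene. The merged feature was at 2527, 2021 and 2824 normalized counts in control and at 3221, 3364 and 3689 in STZ libraries. The groups did not overlap, with means of 2457 ± 406 and 3425 ± 240 (SD, n = 3) and a log2 difference of 0.49 with an SE of 0.20 (limma, adjusted p = 0.275).

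**Figure D2:**
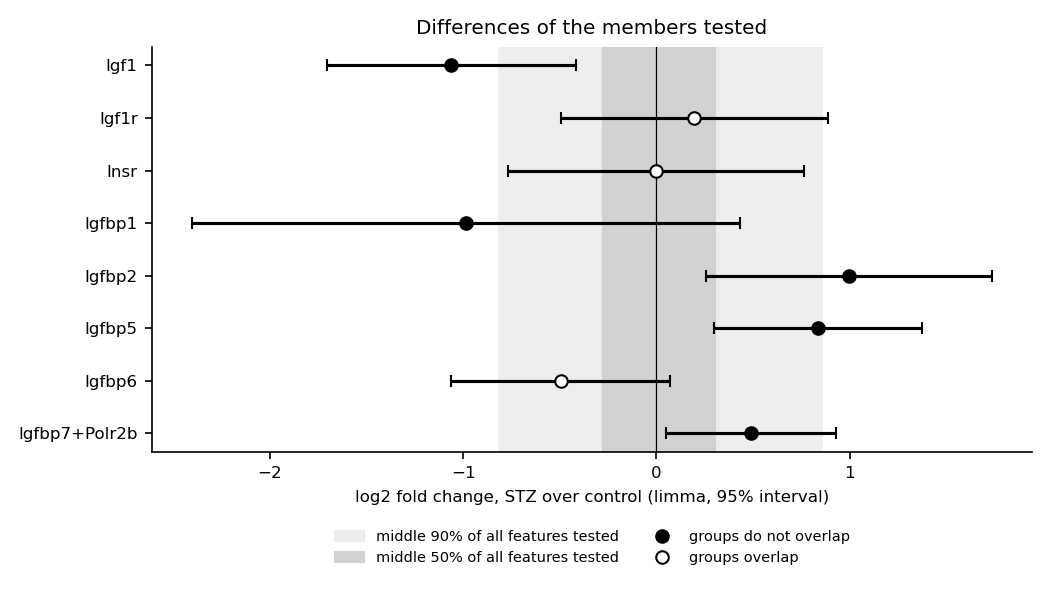
Log2 difference (STZ minus control) of each tested member and of the merged Igfbp7 and Polr2b feature, with the 95% interval from limma. Filled points are those whose groups do not overlap, and the grey bands hold the middle 50% (−0.28 to 0.30) and the middle 90% (−0.82 to 0.86) of all 13486 features tested. Igf1 and Igfbp1 lie below and Igfbp2 above the wider band, while the Igf1r and Insr intervals span 0.

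Of the 7 members tested, 0 passed an adjusted p of 0.05 (limma), against 2.10% of all features tested. At an unadjusted p under 0.05 there were 3 of 7, with Igf1 lower and Igfbp2 and Igfbp5 higher, against 14.7% of all features. The groups did not overlap for 4 of 7, of which Igf1 and Igfbp1 were lower and Igfbp2 and Igfbp5 higher, against 20.3% of all features. Igfbp1 was among the members tested only because of its control level, and of the 6 members that reached the minimum mean in both groups, 3 did not overlap. The median log2 difference of these 6 was 0.10, against 0.0056 over all features.

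Summed over Igfbp1 to Igfbp6, the binding protein level was 10439, 11989 and 14586 normalized counts in control and 21433, 21246 and 22533 in STZ libraries, not divided by length. Between 98.1% and 99.3% of this sum was Igfbp5, so the sum carried the pattern of that 1 gene. Its log2 level was 13.58 ± 0.242 in control and 14.41 ± 0.0458 in STZ libraries, a difference of 0.83 (exact permutation p = 0.1).

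Igf1 reads as a percentage of Igfbp5 reads, a ratio chosen after the values had been seen, came to 2.49%, 1.91% and 1.65% in control and to 0.634%, 0.778% and 0.303% in STZ libraries. The ligand and its most counted binding protein differed in opposite directions, and since neither overlapped between the groups, the direction of the ratio and its separation were fixed by the choice of genes and carry no test. The log2 difference was −1.90. The log2 ratio was −5.65 ± 0.303 in control and −7.54 ± 0.709 in STZ libraries.

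**Figure D3:**
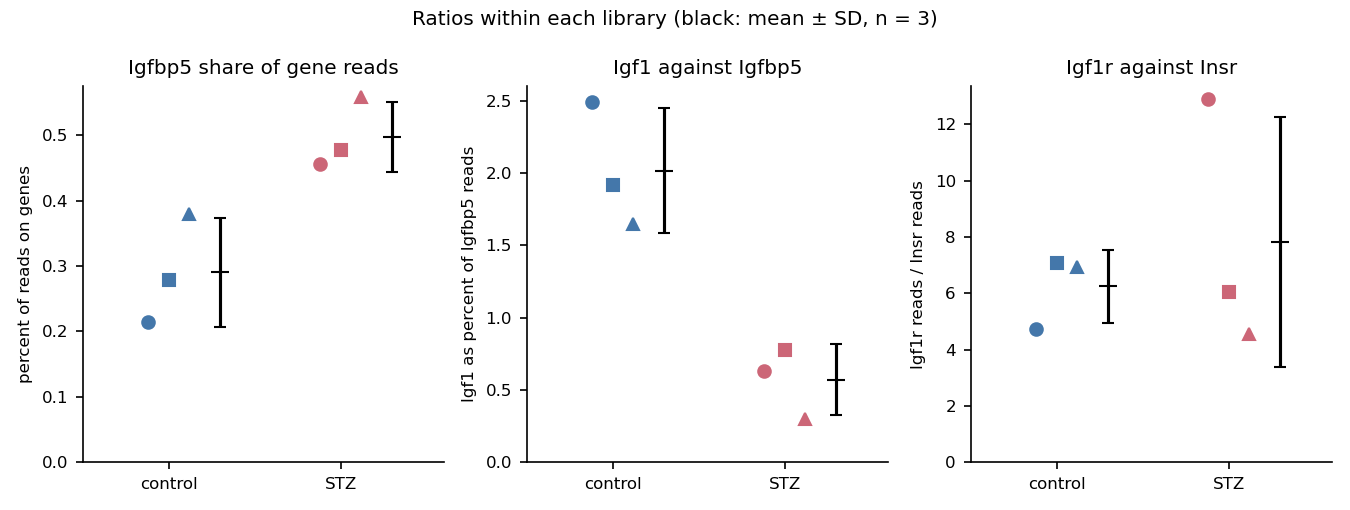
Ratios within each library: Igfbp5 reads as a percentage of all gene reads, Igf1 reads as a percentage of Igfbp5 reads, and reads of Igf1r per read of Insr. Blue points are control and red points STZ libraries, and black bars are the mean ± SD of 3 libraries. The receptor ratio overlaps between the groups, at 4.75 to 7.08 in control and 4.55 to 12.9 in STZ libraries, while Igf1 per Igfbp5 is at 1.65% to 2.49% and 0.303% to 0.778%.

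The wider pathway was read from 8 lists that name 130 genes, of which 102 had a row of their own and 82 were tested. Only Plat passed an adjusted p of 0.05 (limma), and it was lower in STZ libraries. At an unadjusted p under 0.05 there were 7 genes higher and 3 lower, together 12.2% of those tested, against 14.7% of all features. The groups did not overlap for 10 of the 82, or 12.2%, against 20.3% of all features, and the median log2 difference was 0.03.

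Among the other ligands, receptors and relatives, 0 of 5 tested genes passed. Igf2, the second IGF, was at 7.18, 12.2 and 5.57 normalized counts in control and 18.6, 13.8 and 21.1 in STZ libraries. The groups did not overlap. Igf2 exceeded the background of its library in every STZ library and in the first and second control libraries. In the third control library it was lower than background, at 5.57 against 10.02. The log2 difference of Igf2 was 1.06 (limma, adjusted p = 0.273), on few reads. Igfals, Igfbpl1, Insl3, Insrr and Rln1 were at or under 3 reads in every library, and Ins1 and Ins2 had no row of their own. Htra1, a secreted serine protease that cleaves IGF binding proteins, had a log2 difference of 0.50 (adjusted p = 0.483), which was 0.18 without the first and 0.80 without the third control library.

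The list of proteases that cleave IGF binding proteins, with their inhibitors, had 10 genes tested and held the 1 gene that passed an adjusted p of 0.05. Plat (chr16:73711322-73736328) encodes tissue plasminogen activator, which produces plasmin, and it was at 11051, 14469 and 9503 normalized counts in control and 4539, 4625 and 3861 in STZ libraries. Every STZ library was at less than any control library, with means of 11675 ± 2541 and 4342 ± 418 (SD, n = 3) and a log2 difference of −1.41 with an SE of 0.23 (limma, adjusted p = 0.0125). The adjusted p was 0.0771 without the second control library and 0.0539 without the second STZ library. Plat is also made by endothelium, whose markers were mixed, with Emcn and Plvap lower and Vwf higher in STZ libraries at log2 differences of −1.38, −1.01 and 1.97, and the part of that in the Plat difference was not tested.

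In growth hormone signalling, which drives Igf1 transcription in liver, 0 of 4 tested genes passed and the median log2 difference was 0.38. The smallest p was that of the transcription factor Stat5a, with a log2 difference of 0.66 (limma, adjusted p = 0.310), followed by its kinase Jak2, with 0.46 (adjusted p = 0.551). The Jak2 difference was 0.27 without the first control library, 0.73 without the first STZ library and 0.30 without the third. The feedback inhibitors Socs1 and Socs2 were at or under 3 reads in every library.

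Of the receptor substrates and adaptors, 0 of 10 tested genes passed, 0 had an unadjusted p under 0.05 (limma), and the groups overlapped for each of them. The adaptors Grb2 and Dok1 had the smallest p, with log2 differences of 0.28 and 0.59 (adjusted p = 0.658 each). Without the first or the third control library that of Grb2 was 0.42 or 0.13, and that of Dok1 was 1.03 without the second control library, 0.31 without the third and 0.15 without the first STZ library. Irs1, the classical insulin receptor substrate, and Irs3 were at or under 3 reads in every library.

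Of the PI3K and Akt cascade, 0 of 15 tested genes passed, with a median log2 difference of 0.08. Akt1, the kinase at its centre, was at 43.1, 73.2 and 61.2 normalized counts in control and 139, 118 and 73.3 in STZ libraries. The groups did not overlap but met at their edges, with 73.2 in the highest control and 73.3 in the lowest STZ library, and the log2 difference was 0.87 with an SE of 0.29 (limma, adjusted p = 0.167). The lipid phosphatase Inpp5d had a log2 difference of −0.39 (adjusted p = 0.768), which was −0.016 without the first STZ library, −0.60 without the third and −0.60 without the first control library.

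In the mTOR branch 0 of 11 tested genes passed, with log2 differences of 0.43 for the S6 kinase Rps6kb1 (limma, adjusted p = 0.324) and 0.55 for the stress-induced inhibitor Sesn3 (adjusted p = 0.371), the latter 0.32 without the second control library. The Ras and MAP kinase branch also had 0 of 12 past the threshold. Its smallest p values were those of the kinase Rps6ka1, at a log2 difference of 0.99 (adjusted p = 0.270), and of the ERK phosphatase Dusp6, at −0.52 (adjusted p = 0.401). They were 0.58 for Rps6ka1 without the first STZ library and −0.31 for Dusp6 without the first control library.

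Of the FoxO factors and their insulin-repressed targets, 0 of 16 tested genes passed and the median log2 difference was −0.11. Sod2, the mitochondrial superoxide dismutase, came nearest, at 375, 348 and 219 normalized counts in control and 176, 159 and 162 in STZ libraries. The groups did not overlap, with a log2 difference of −0.88 and an SE of 0.23 (limma, adjusted p = 0.0767). The transcriptional repressor Bcl6 had a log2 difference of 0.59 (adjusted p = 0.281), and Foxo4 was at or under 3 reads in every library.

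**Figure D4:**
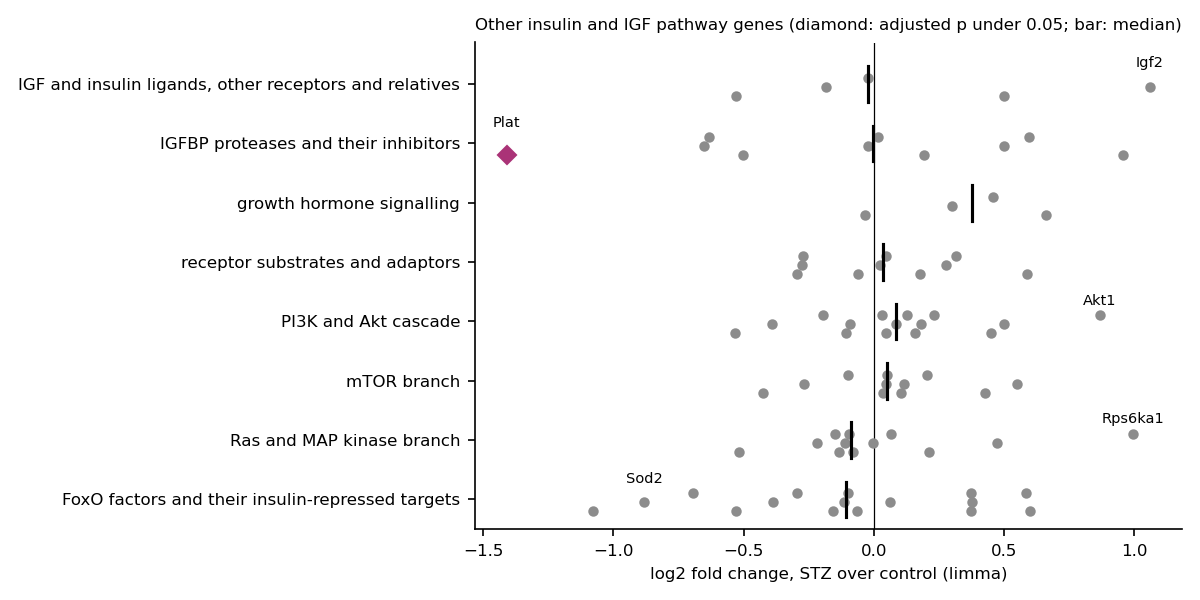
Log2 difference (STZ minus control) of each tested gene in the 8 pathway lists, 1 row of points per list, with the list median as a bar. The diamond is Plat at −1.41, with the 1 adjusted p under 0.05, and the other points lie on both sides of 0 in each list.

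The genes whose profile over the 6 libraries was most like that of Igf1 were sought among 6482 genes (those averaging 50 or more normalized counts), by the root mean square difference of log2 values centred on each gene's mean. Tmem171 stood nearest at 0.193, then Slc4a1 at 0.195 and Fastkd5 at 0.209. Slc4a1 is the chloride and bicarbonate exchanger of intercalated cells, and Fastkd5 takes part in mitochondrial RNA processing. Slc4a1 was at 182, 151 and 180 normalized counts in control and 80.8, 101 and 60.2 in STZ libraries, and like Igf1 it was lowest in the third STZ library. Its log2 difference was −1.10 (limma, adjusted p = 0.0367), against −0.98 for Tmem171 (adjusted p = 0.0520) and −0.96 for Fastkd5 (adjusted p = 0.0992). The adjusted p of Slc4a1 was above 0.05 when any 1 library was left out, at 0.0550 to 0.106. These genes were chosen for their likeness, so their direction is a description.

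**Figure D5:**
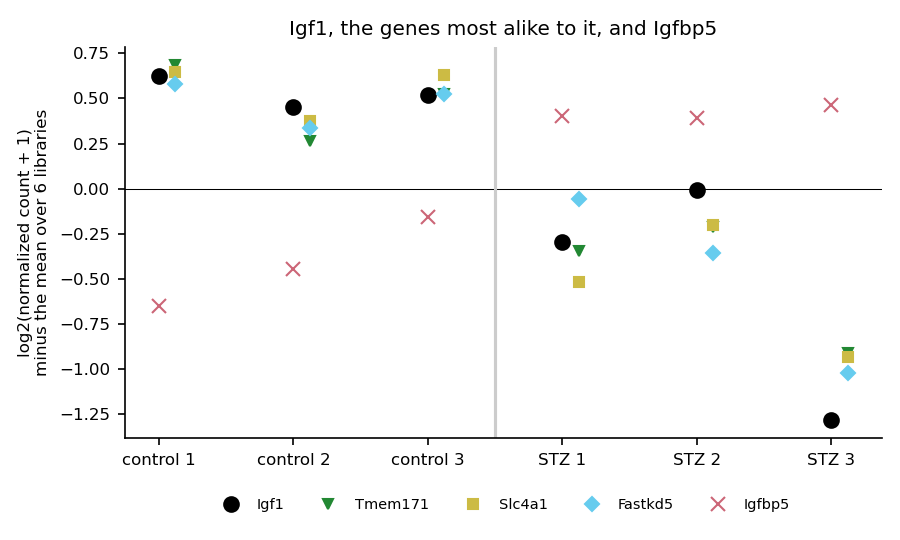
Log2(normalized count + 1) after subtracting the mean over the 6 libraries, for Igf1, the 3 genes most like it, and Igfbp5. Igf1, Tmem171, Slc4a1 and Fastkd5 lie above 0 in the 3 control libraries and below 0 or near it in the STZ libraries, while Igfbp5 lies the other way.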

How the data were processed

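RNA-seq of the IM tip from 3 control and 3 STZ rats was analysed. Per the methods and labels, cDNA was made with a SMARTer kit and sequenced on a HiSeq2000, and the authors aligned reads to rn4 with STAR 2.3.1t, counted uniquely mapped reads per gene of the Ensembl annotation and scaled them with DESeq 1.16.0. The counting program and strand setting are not given in the sources used here. The deposited values are a signal, namely read counts divided by 1 size factor per library. Of these values, 100% came to whole reads within 0.001, and the floor was fixed at 3 reads.

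Features were tested with limma 3.58.1 (R 4.3.3) with an intensity trend, on log2(normalized count + 1), where the mean of all 6 libraries reached 5, with Benjamini-Hochberg adjustment over all 13486. Reads have no molecular identifiers, so counting intervals (95%) and the floor cover counting error only. Single ratios were compared by two-sided exact permutation. Where nothing says more of the 3 rats per group, p-values measure the spread between these samples. The test was checked on simulated data. Other tables and figures used Python 3.11.15.

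The members and the gene lists were chosen with earlier results of these data known. Named genes were the 10 members, the genes of each pathway list with an adjusted p under 0.05 or otherwise the 2 with the smallest p, and the 3 genes most like the member with the smallest p. Cell type markers are given as lists. Features with joined names were not split between their genes. Coordinates are those of the table (rn4). Promoters came from RefSeq (GRCr8), matched by symbol for 10 of 10 members, and no transcript lengths were used. Alternatives changed the pseudocount, the minimum mean, the scaling, the variance prior, the replicate block and the libraries left out.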

Additional observations from a re-analysis of the deposited data

How the results depend on the processing

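The number of features called by limma was 283 as reported, 522 after quantile normalization, 31 without the intensity trend and 86 to 341 with 1 library left out. Of the 7 members 0 passed, except that Igf1 did with no filter on low values (1 called, adjusted p = 0.0327) and with the replicate block, and 0 in every run without 1 library. Pathway genes called were 1 as reported, 2 with no filter, 2 with equal library totals, 2 after quantile normalization (Plat and Sod2), 0 without the trend, and 0 to 2 with 1 library left out. The adjusted p of Igf1 ran from 0.0327 to 0.277 and that of Igfbp5 from 0.0555 to 0.542 over the alternatives. With 1 library left out the Igf1r difference ran from −0.18 (without control replicate 1) to 0.42. The Insr difference turned positive with a pseudocount of 5 (0.0046), after quantile normalization (0.014), and without control replicate 2 (0.053), control replicate 3 (0.13) or STZ replicate 1 (0.32). With 1 library left out, the log2 ratio of Igf1r to Insr ran from −0.22 to 0.51 (−0.22 without STZ replicate 1), the summed binding protein difference from 0.72 to 0.96 and the Igf1 to Igfbp5 difference from −2.17 to −1.50. The cause of these changes was not tested.

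Whether the replicate numbers pair the samples was not settled. Same-numbered libraries correlated at 0.574, −0.015 and 0.496 in their deviations from the group means. Libraries with different numbers correlated at −0.592 to 0.270, and 4 of 6 libraries correlated best with their own number. With the replicate number as a block, 561 features, 1 member (Igf1, adjusted p = 0.0453) and 3 pathway genes (Plat, Rps6ka1 and Sod2) were called.

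The count-based alternatives (edgeR and DESeq2 on recovered reads) were not run. The values of all 6 libraries came to whole reads within 0.001. In 2 STZ libraries 1 read was worth close to 1 normalized count, and an automatic check of the unit did not accept these as counts. Levels were not divided by length, so that alternative equals the reported value. Depth limits Igfbp1, Igfbp3 and Igfbp4, which rest on 10 to 24 reads per group.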
